A study of Drosophila melanogaster with 8 samples.

Results

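On the autosomal arms 2L, 3L and 3R of Drosophila melanogaster, 408 regions carried a peak of N6-methyladenine (6mA) immunoprecipitation in each ovary library that overexpressed Sam-S and in neither control library. They were chosen by that presence and absence alone, once peaks from the 4 lists had been merged wherever they overlapped by 1 bp or more. The lists gave 7001 merged regions, 3475 of them on these arms, so the 408 made up 11.7% of the regions there. The reverse pattern, a peak in both control libraries and in neither Sam-S library, was found at 1 region (0.0288%), a count that the short control 2 list limits: with control 2 left out of both rules, 411 regions were called in Sam-S only and 165 in control only. Because presence in the lists defined the regions, these counts and the folds below are descriptions and carry no test.

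In the Sam-S groups the UASp-Sam-S transgene was driven in the germline by nanos-gal4; the labels name the other genotype only as control, and the series text calls it wildtype. All DNA came from whole ovaries, which hold somatic follicle cells as well as the germline cells in which the driver acts, so DNA of both is mixed. There were 2 immunoprecipitated libraries per genotype, called here control 1, control 2, Sam-S 1 and Sam-S 2, where the number is also the batch in the labels, and each had an input library of its own. The age of the flies is not given in the sources used here.

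6mA is adenine methylated at the amino group. It is common in bacterial DNA and has been described at low levels in animals, where its abundance is debated. Sam-S makes S-adenosylmethionine, the methyl donor of DNA, RNA and protein methyltransferases. In flies the dioxygenase Tet has been described as an enzyme that removes 6mA from DNA, and the forkhead protein Jumu as a protein that binds it.

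The immunoprecipitated control libraries did not hold fewer tags than the Sam-S ones. Tags per immunoprecipitated library numbered 47403833 (control 1), 49800736 (control 2), 45068709 (Sam-S 1) and 39591292 (Sam-S 2), which gave 1635, 279, 2205 and 2680 peaks on 2L, 3L and 3R. Their inputs held 40294502, 52344880, 39571865 and 47394608 tags in the same order. The input was thus the larger library in control 2 and Sam-S 2, and the caller scales the smaller one up. Whether this bears on the length of the lists was not tested. Control 2 stood apart by its short list, and removing it from the rule moved the number only from 408 to 411. Removing control 1 in its place gave 1296 regions. The choice of the regions therefore rested almost wholly on control 1.

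**Figure D1:**
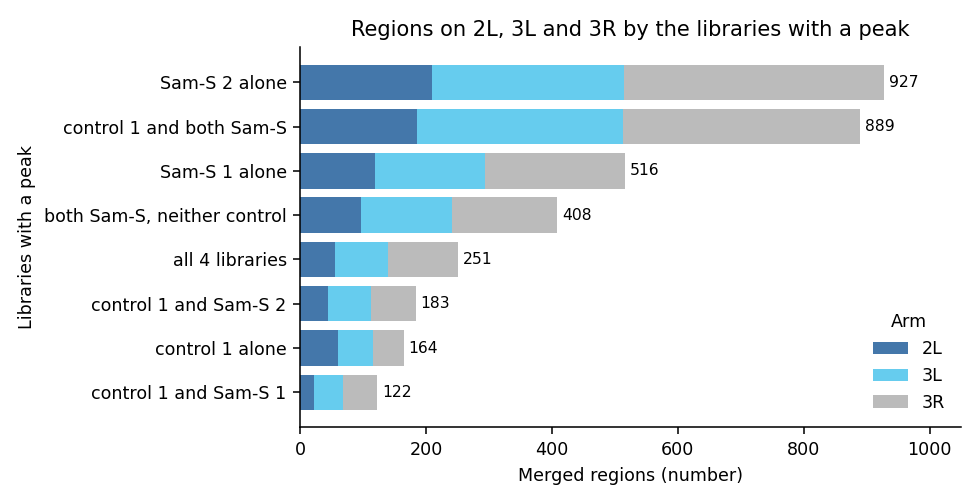
Number of merged regions on 2L, 3L and 3R (x axis) for each set of libraries with a peak (y axis), stacked by arm; sets of fewer than 100 regions are not drawn. The 408 regions called only in the Sam-S pair are fewer than the 889 that control 1 shares with both, and fewer than the 927 of Sam-S 2 alone.

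Within batch 1, 929 regions on the 3 arms had a peak in Sam-S 1 and not in control 1, and 353 had the opposite. The 408 regions were 43.9% of the former. Within batch 2, 2407 regions had a peak in Sam-S 2 and not in control 2, and 6 had the opposite, so the 408 were 17.0% of the Sam-S regions there. Both batches thus had more regions with a peak in Sam-S only than in control only, and the imbalance was far larger in the batch of control 2.

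The 408 regions were divided into 97 on 2L, 144 on 3L and 167 on 3R. That is 4.13 regions per Mb on 2L, 5.12 on 3L and 5.21 on 3R, against 33.7, 43.1 and 45.9 per Mb for regions of any pattern. Of the 1551 regions that both Sam-S libraries called on these arms, 26.3% lacked a control peak (95% Wilson interval 24.2 to 28.6%). By arm the share was 28.7% on 2L (24.1 to 33.7%), 25.9% on 3L (22.4 to 29.7%) and 25.4% on 3R (22.2 to 28.9%). It was 28.2% on 2R (24.3 to 32.3%) and 27.6% on the X (24.9 to 30.5%). The 5 intervals overlap, and the share did not separate these autosomal arms from the X. Wilson intervals here cover counting error only, and regions of a library are not replicates.

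The regions were spread along the arms. Of 86 windows of 1 Mb that held any region, 85 held at least 1 of the 408, with a median of 4 per window. The fullest window, 3R 21000001 to 22000000, held 14 of them among 76 regions. Within 10 kb of another of the same kind lay 78 of the 408 (19.1%). The share was 35.3% for the 889 regions shared by control 1 and both Sam-S libraries, a larger set. It was 22.3% for the 251 regions called in every library, a smaller one. These shares depend on the size of the set, and whether the 408 lay closer together than evenly placed regions was not tested.

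At these regions the enrichment was modest, and the summits of the 2 Sam-S libraries mostly lay close together. The fold enrichment, which is the authors' caller's ratio of the immunoprecipitated pileup to the local input background, had a median of 1.84 in Sam-S 1 (lowest 1.19, highest 2.53) and of 1.93 in Sam-S 2 (lowest 1.23, highest 3.10). The summits of the 2 peaks lay a median of 16 bp apart, and within 50 bp of each other at 350 regions (85.8%). At the median region 99.1% of the shorter peak was covered by the other. The rule kept only regions where the peaks of Sam-S 1 and Sam-S 2 overlapped, so closeness and coverage partly follow from the choice and do not measure replicate agreement. They did not set these regions apart either. The median summit distance was also 16 bp at the 889 regions shared with control 1, with 85.8% within 50 bp. It was 17 bp at the 251 called in every library, with 79.3% within 50 bp. The regions were 202 to 1394 bp long, with a median of 264 bp.

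Folds were higher at the regions that control libraries shared. At the 889 regions with a peak in control 1 and both Sam-S libraries, the median fold was 1.91 (control 1), 2.04 (Sam-S 1) and 2.14 (Sam-S 2). At the 251 with a peak in all 4, it was 2.22 (control 1), 1.79 (control 2), 2.40 (Sam-S 1) and 2.49 (Sam-S 2). Thus the 408 regions had the lowest median fold of the 3 sets in both Sam-S libraries. Their median position within the list of the same arms was percentile 37.4 in Sam-S 1 and 42.9 in Sam-S 2, and 3 and 9 of them were among the top 10% of these lists. Sam-S 2 had the higher fold at 257 of the 408 regions (63.0%), beside 64.9% and 65.7% in the other 2 sets. Across the 408 regions the folds of the 2 Sam-S libraries had a Pearson r of 0.51 and a Spearman rho of 0.50, given as a description of regions that share their 2 libraries.

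**Figure D2:**
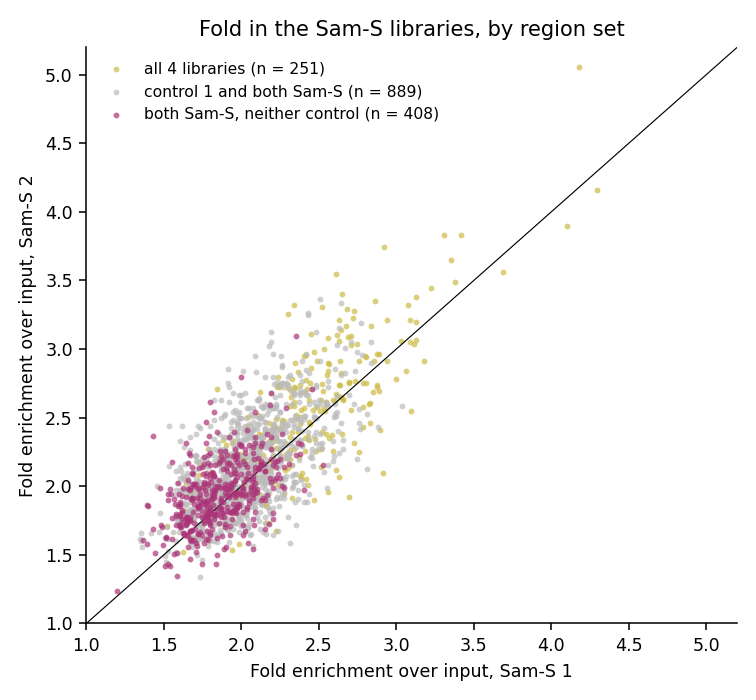
Fold enrichment over input in Sam-S 1 (x axis) and Sam-S 2 (y axis) for each region on 2L, 3L and 3R with a peak in both, coloured by the control libraries that also had one; the line marks equal folds. The 408 regions with no control peak sit at the low end, around medians of 1.84 and 1.93. Only 4 regions reach a fold of 3.5 in both libraries, and all 4 have a peak in every library.

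The share of regions that lacked a control peak fell with the strength of the Sam-S signal. The 1551 regions were ranked by the smaller of their 2 Sam-S folds and divided into 5 classes of nearly equal size. In the weakest class, with folds from 1.19 to 1.72, 140 of 311 regions had no control peak (45.0%, 95% Wilson interval 39.6 to 50.6%). The share was 41.3% in the second class, 27.1% in the third and 15.8% in the fourth. In the strongest class, with folds from 2.23 to 4.18, 7 of 310 had none (2.26%, 1.10 to 4.59%). Control 1 had a peak at 54.3% of the weakest class and 97.7% of the strongest, and control 2 at 4.18% and 49.7%. Nearly all of the strongest Sam-S regions were therefore also called in control 1. When only peaks with a fold of 2 or more were used in every list, 258 regions met the rule, and 66 of the 408 were among them. With each list limited to its 683 most significant peaks, 18 regions met it, and 3 of the 408 were among them.

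**Figure D3:**
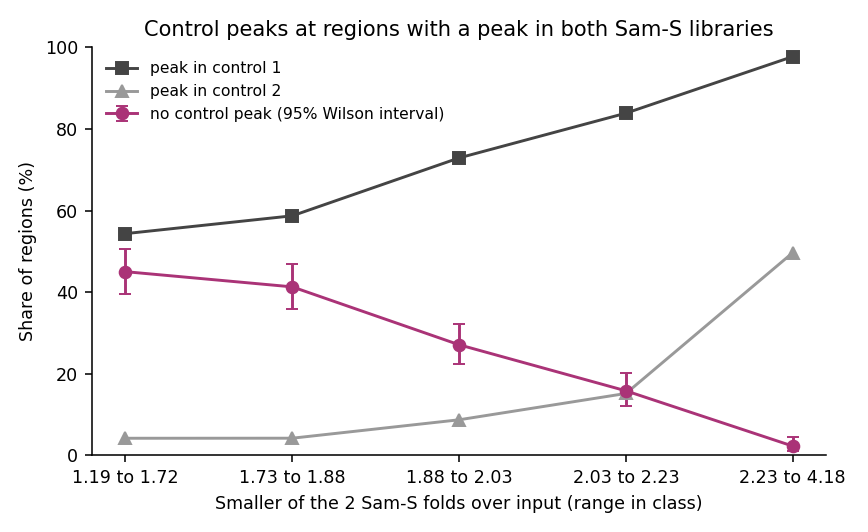
Share of the regions that both Sam-S libraries called (y axis, percent) that had no control peak, a control 1 peak or a control 2 peak, in 5 classes of the smaller Sam-S fold (x axis); bars are 95% Wilson intervals. The share with no control peak falls from 45.0% to 2.26% while that with a control 1 peak rises from 54.3% to 97.7%.

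The lists give no value where no peak was called, so the control fold at these regions is not known. The control 1 list on the same arms held folds down to 1.29, with a median of 1.88. In Sam-S 1, 184 of the 408 regions (45.1%) had a fold above that median, and in Sam-S 2 240 did (58.8%). The control 2 list had a median fold of 1.77, which 271 of the 408 regions exceeded in Sam-S 1 and 315 in Sam-S 2. Many of the 408 thus had a Sam-S fold above the middle of the control lists, although folds of different libraries rest on different inputs. Within their own lists their median position was percentile 37.4 (Sam-S 1) and 42.9 (Sam-S 2). In each Sam-S library 1 region lay below the lowest fold of control 1.

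The caller uses a genome-wide background where the local input does not exceed it, 75.1 tags in Sam-S 1 and 79.0 in Sam-S 2. At 184 of the 408 regions (45.1%, 40.3 to 49.9%) the background in Sam-S 1 was at that level, within 0.1 tags, and at 172 (42.2%, 37.5 to 47.0%) in Sam-S 2. At the 889 regions shared with control 1 these shares were 58.9% (55.7 to 62.1%) and 51.1% (47.8 to 54.3%), and at the 251 called in every library they were 40.2% (34.4 to 46.4%) and 25.9% (20.9 to 31.7%). The 408 thus lay between the other 2 sets. The local input therefore exceeded the genome-wide level at the majority of the 408 regions.

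The region with the highest smaller fold lay in dpy, which encodes the giant extracellular protein Dumpy that anchors epithelia to the cuticle. It spans 2L 4531716 to 4532015, with a fold of 2.46 in Sam-S 1 (pileup 256) and 2.71 in Sam-S 2 (pileup 259). Sam-S 2 had fewer tags than its input, so the caller scaled its pileups up, and they are not tag counts. The control peak nearest to the dpy region was 14.4 kb away. The second, 3L 14799204 to 14799490 in Helz, had folds of 2.35 and 3.10, the latter the highest of the 408 in Sam-S 2, and a control 1 peak lay 1.33 kb from it. Of these 2, the dpy region was the more alike in the replicate libraries.

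Among the next regions, 3R 18821624 to 18821941 lay in Octalpha2R, a receptor for the neurotransmitter octopamine, with folds of 2.26 (Sam-S 1) and 2.38 (Sam-S 2). The region 2L 17234163 to 17234393 lay in beat-IIIc, of the Beaten path family of immunoglobulin-domain neuronal proteins, with folds of 2.19 and 2.20. The nearest control peaks were 9.13 kb and 52.4 kb away. The other genes of this group of 12 were CG17321, which the region touches by its edge, CG14257, CG42540, wwk, CG3744 and CG42674, with smaller folds between 2.19 and 2.32. Regions outside any gene were 2L 9752826 to 9753032, between the protein-coding genes Cyp4e3 and zf30C, with folds of 2.35 and 2.23, and 3R 3429502 to 3429766, between spok and Parp1, with folds of 2.19 and 2.68. Over the 12, the nearest control peak was 1.33 to 61.0 kb away.

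**Figure D4:**
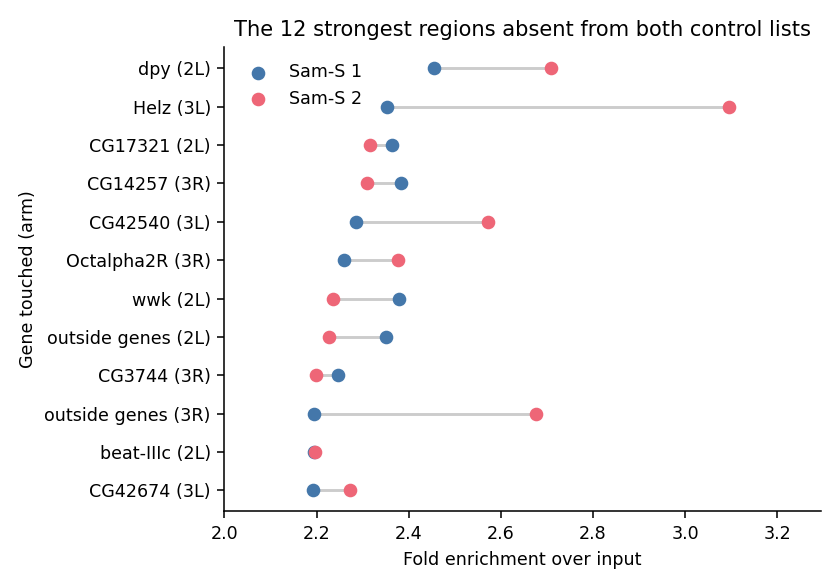
Fold enrichment over input (x axis, starting at 2) in Sam-S 1 and Sam-S 2 for the 12 regions with the highest smaller Sam-S fold, labelled by the gene they touch and the arm. The widest gaps are those of Helz, with 2.35 and 3.10, and the 3R region outside genes, with 2.19 and 2.68, followed by CG42540, with 2.29 and 2.57, and dpy, with 2.46 and 2.71.

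The 3 longest regions differed widely in fold. The longest, 1394 bp at 3L 24173517 to 24174910, lay in Snap25, a component of the synaptic membrane fusion machinery, with folds of 1.43 (Sam-S 1) and 1.69 (Sam-S 2) and a control 1 peak 236 bp away. The next, 930 bp at 2L 23512758 to 23513687 outside genes, had the lowest folds of all 408, 1.19 and 1.23, on pileups of 400 and 479. Its end is the last position on 2L in the lists. Folds so low on such pileups mean a local background well above the genome-wide 75.1 tags (Sam-S 1) and 79.0 tags (Sam-S 2). The third, 924 bp at 3R 8835045 to 8835968 in pyd, which encodes the junction protein Polychaetoid, had folds of 2.00 and 2.79, but its summits in the 2 libraries were 640 bp apart. In the pyd region the 2 Sam-S libraries thus did not mark the same point.

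Control peaks lay close to some of the regions. The nearest control peak of either library was a median of 14.3 kb away (quartiles 3.85 and 29.9 kb), and 37 of the 408 regions (9.07%) had one within 1 kb. The smallest distance, 142 bp, was at 3R 6381730 to 6382024 in TfIIFalpha, a subunit of a general transcription factor of RNA polymerase II, with folds of 1.72 (Sam-S 1) and 1.84 (Sam-S 2). Next came a region in lilli at 168 bp. Just outside the rule, 3L 15378207 to 15378552 was kept out by a control 1 peak that shared at most 169 bp with a Sam-S peak, where the folds were 1.47 (control 1), 1.63 (Sam-S 1) and 1.97 (Sam-S 2). The next such region was in Tet itself, 3L 2824880 to 2825130, where they were 1.74 (control 1), 1.79 (Sam-S 1) and 1.63 (Sam-S 2).

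The caller's significance cutoff also set the edge. At the cutoff, a q of 0.05, −log10 of q is 1.30. The weakest control 1 peak that kept a region out lay in chinmo, 2L 1697009 to 1697360, with −log10 q of 1.33 and a fold of 1.31 in control 1, beside 1.35 (Sam-S 1) and 1.66 (Sam-S 2). Inside the rule the lowest −log10 q was 1.77 in Sam-S 1, at 3R 8105958 to 8106231 in puc, and 1.47 in Sam-S 2, at 3R 21626453 to 21626678 in E2f1. The region in puc, which encodes a phosphatase of the JNK pathway, had folds of 1.37 and 1.61, and the one in E2f1, a transcription factor of the cell cycle, 1.59 and 1.35.

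The midpoints of 323 of the 408 regions lay in a gene (79.2%, 95% Wilson interval 75.0 to 82.8%). The share was 76.4% (73.5 to 79.1%) at the regions shared by control 1 and both Sam-S libraries, 81.3% (76.0 to 85.6%) at those in all 4, and 75.8% (74.4 to 77.2%) at all regions of these arms. The interval of the 408 overlaps each of the others. Taking the longest gene at each midpoint, 309 of the 323 were protein-coding and 14 were long noncoding RNA genes. Whether these places are promoters, exons or introns was not analysed here.

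The regions touched 296 of 11216 genes on these arms (2.64%), of which 279 were protein-coding. A single region touched 261 of them, 27 had 2, and 8 had 3 or more. For 151 of the 296 genes (51.0%) no region of the gene on any list had a control peak, and the other 145 (49.0%) also held a region with one. Of the 1315 genes with a region of any pattern, 788 (59.9%) held one with a control peak. The 2 shares are not like for like, since each of the 296 genes was picked for holding a region without a control peak.

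The genes were long, as were those at regions of other patterns. The median length of the protein-coding ones was 22.0 kb, against 2.08 kb for the 8794 protein-coding genes of the 3 arms. Taking the longest gene at each midpoint, the median was 25.6 kb for the 408 regions. It was 36.3 kb at regions shared by control 1 and both Sam-S libraries, 32.9 kb at those in all 4, and 33.1 kb at all regions. Of the 179 protein-coding genes from 50 kb, 167 held a region of any pattern. Regions of the 408 touched 0.613% of protein-coding genes under 5 kb and 6.27% of those from 5 to 20 kb. They touched 18.0% of those from 20 to 50 kb and 36.9% of longer ones. Per Mb of gene length the numbers were 3.30, 7.18, 6.21 and 5.12, so the density varied far less than the share of genes.

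The genes with the most regions were Rbp6, which encodes an RNA-binding protein of the Musashi family, and Myo81F, which encodes a myosin, with 5 each. In Rbp6 the folds ran from 1.68 to 2.02 in Sam-S 1 and from 1.67 to 2.20 in Sam-S 2, and 8 of the 18 regions in the gene had a control peak. Myo81F spans 1966 kb in the table and had 28 regions, 15 with a control peak. Among the genes with 3 regions the density was highest in srp, the GATA factor Serpent of blood and fat body development. Its 3 regions lay between 3R 16000401 and 16002927. In order of position, their folds were 2.11, 2.03 and 1.84 (Sam-S 1) and 2.21, 2.05 and 2.00 (Sam-S 2), the nearest control peak to them was 12.3 kb or more away, and 1 other region of srp had a control peak. There were also 3 regions each in aus, in CG45263 and in SKIP, and, at lower densities, in Snap25 and bru3. In SKIP, named for its interaction with the Shal potassium channel, the region 3R 22272937 to 22273230 had a fold of 2.53, the highest of the 408 in Sam-S 1, and of 2.15 in Sam-S 2.

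None of 12 genes of S-adenosylmethionine and one-carbon metabolism on these arms was touched, Sam-S among them, and none of the 12 held a region of any pattern. Of 6 genes for DNA methylation and candidate 6mA enzymes and binding proteins, including Mettl4 and jumu, none was touched, and 1, Tet, held a region with a control peak. The 12 genes ran from 1.24 to 8.05 kb and 5 of the 6 from 1.16 to 11.4 kb, while Tet spans 93.0 kb. Touched shares over all protein-coding genes were 0.613% under 5 kb, 6.27% from 5 to 20 kb and 36.9% from 50 kb. Of 5 genes for methylation of adenine in RNA, from 1.54 to 5.37 kb long, 1 was touched, beside 2.64% of all genes and 0.613% of protein-coding genes under 5 kb. It was Ythdc1, the nuclear reader of N6-methyladenosine, with folds of 1.96 (Sam-S 1) and 2.12 (Sam-S 2) at 3L 3371097 to 3371460 and the nearest control peak 22.7 kb away.

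Of 22 germline and oogenesis genes, 4 were touched (18.2%), beside 2.64% of all genes of the arms. Per Mb of gene there were 5.91 regions, beside 5.51 for all genes. The 4 touched genes were 25.1 to 171 kb long, and all 4 also held a region with a control peak. The folds in Sam-S 1 and Sam-S 2 were 1.97 and 2.17 in AGO3, an Argonaute of the piRNA pathway, with a control peak 0.514 kb away. They were 1.79 and 1.75 in pum, the translational repressor Pumilio that acts with Nanos, where the nearest control peak was 14.2 kb away. They were 1.83 and 2.00 in brat, a partner of Pumilio, and 1.68 and 1.90 in twin, the deadenylase of the CCR4 complex, each with a control peak within 1 kb. Among the untouched genes were nanos, osk, vas, piwi and aub, which are 2.97 to 12.7 kb long. Longer genes were untouched as well: orb (20.2 kb), qin (59.1 kb) and bru1 (138 kb). Over all protein-coding genes the touched share was 0.613% under 5 kb and 6.27% from 5 to 20 kb. It was 18.0% from 20 to 50 kb and 36.9% above.

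Of 51 genes for neuronal adhesion and guidance 9 were touched (17.6%), at 3.70 regions per Mb, and of 26 ion channel and receptor genes 5 (19.2%), at 6.46 per Mb. The lists do not hold every gene of their kind: beat-IIIc and Octalpha2R, described above, and beat-Vc and 5-HT7, chosen after their values were seen, were touched and are on neither list. The median gene lengths of the 2 lists were 38.7 and 19.1 kb. Single genes ran from 3.81 to 165 kb on the adhesion list and from 2.68 to 92.9 kb on the channel list. No single length class is therefore a like comparison for either list. Over all protein-coding genes, the touched shares were 0.613% under 5 kb, 6.27% from 5 to 20 kb, 18.0% from 20 to 50 kb and 36.9% above. In Fas3, a homophilic adhesion protein, the folds were 2.09 (Sam-S 1) and 2.14 (Sam-S 2) at the only region of the gene. The folds were 1.95 and 2.02 in beat-VII, 1.92 and 1.98 in dpr15, and 1.97 and 1.87 in kek2. These 3 genes held 2, 2 and 3 regions, none with a control peak. The other 5 genes of adhesion, beat-IV, dpr6, Ten-m, Lar and Cad87A, also held regions with a control peak.

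Among the channels, nAChRalpha1, a subunit of the nicotinic acetylcholine receptor, had folds of 1.83 (Sam-S 1) and 2.54 (Sam-S 2), the least alike of the list. The calcium-activated potassium channel slo had 2.12 and 2.12, and the glutamate receptor gene Nmdar1 had 2.04 and 1.85 at its only region. Rdl, a GABA receptor, had 1.73 and 1.99 with a control peak 0.261 kb away, and the receptor subunit nAChRbeta1 had 1.75 and 1.64.

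Of 15 Polycomb and trithorax genes 2 were touched (13.3%), Jarid2, a cofactor of the Polycomb complex that methylates histone H3, with 1.96 (Sam-S 1) and 1.92 (Sam-S 2), and osa, a subunit of the Brahma remodelling complex, with 1.79 and 1.80. Of 23 homeotic and patterning genes 3 were touched (13.0%). They included the gap gene kni, with 1.83 and 1.97 at its only region, and the homeobox gene hth, with 1.60 and 1.87. The other was the Notch ligand gene Dl, with 1.73 and 1.67. No Hox gene was touched. Of all genes of the arms, 2.64% were touched. The densities were 14.9 regions per Mb of gene for the Polycomb and trithorax list and 4.50 for the homeotic and patterning list. For all genes the density was 5.51, and the median gene lengths of the 2 lists were 4.78 and 19.5 kb. With 0 to 9 genes touched per list the counts are small, and no test was made across genes.

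**Figure D5:**
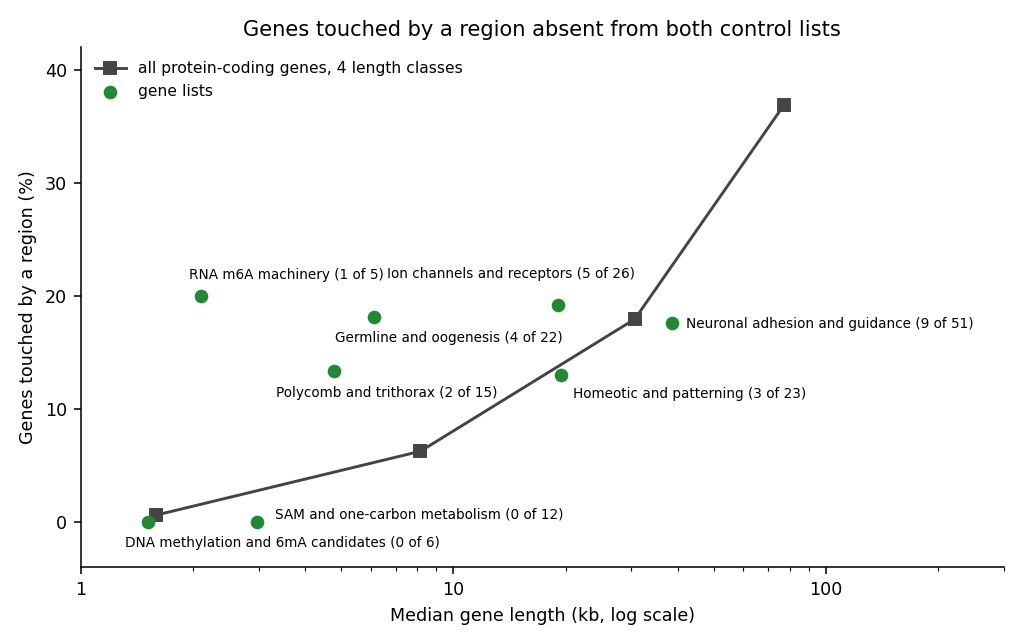
Share of genes touched by one of the 408 regions (y axis, percent) against median gene length (x axis, kb, log scale), for all protein-coding genes on 2L, 3L and 3R in 4 length classes (squares, joined) and for 8 gene lists (circles, with genes touched of genes on the arms). The share in the length classes rises from 0.613% to 36.9%, and the lists run from 0 of 12 to 1 of 5. Lists mix genes of very different lengths, so the place of a circle relative to the line is not a like comparison.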

How the data were processed

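Per the file headers, the authors ran MACS (version 2.1.1.20160309) on each immunoprecipitated library with its own input, without pooling replicates. Its settings were a q cutoff of 0.05, extension of tags to 200 bp, at most 1 tag at a position, and scaling up of the smaller library. They name uniquely aligned reads; the submitters' processing notes name Bowtie2, and the genome build is not given in the sources used here. The deposited lists hold the pileup signal at the summit, the fold enrichment as a ratio, and −log10 of p and of q. Folds are the authors' own values.

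Peaks sharing 1 bp were merged across the 4 lists, and coordinates are 1-based, as deposited. The merging was tested on simulated lists, where 3000 of 3000 regions received their simulated set. A region counted as lying in a gene when its midpoint did, and a gene was touched when any base of a region lay in it. Gene names and lengths came from the RefSeq table of assembly Release 6 plus ISO1 MT; none of its coordinates is printed, since the lists name no build. Their last position on 3R is 32078907. The members and gene lists were chosen with earlier results of these data known. The genes and regions named are the 12 with the highest smaller Sam-S fold, the 3 longest, those nearest the edges of the rule, the 6 genes with the most regions (ties by density) and touched genes of the 8 lists. No genome sequence and no transposon list was used here. Software was Python 3.11.15 with pandas 2.3.3, numpy 2.4.6, matplotlib 3.10.9 and scipy 1.17.1.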

Additional observations from a re-analysis of the deposited data

How the results depend on the processing

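No paired analysis was possible because the results come from no test: the regions were chosen by the same lists, and shared replicate numbers (the batches) enter as the within-batch counts of the report, which are descriptions. The number of regions was 405 with q of 0.01 or lower, 391 with peaks within 500 bp merged and 371 with no control peak within 1 kb. It was 258 with folds of 2 or more and 18 with equal numbers of top peaks, settings that keep fewer peaks, control peaks included. Leaving out each replicate in turn gave 411 to 1338 regions, because fewer libraries have to hold or lack a peak. The share in a gene ran from 76.2 to 80.2% under all settings but equal numbers of top peaks, where it was 100% of 18 regions; across the left-out replicates it was 76.2 to 78.8%. The median fold was 2.13 (Sam-S 1) and 2.22 (Sam-S 2) with folds of 2 or more, 2.38 and 2.62 with equal numbers of top peaks, and 1.79 to 1.97 and 1.88 to 2.05 across the left-out replicates. It moved by less than the SD of the Sam-S medians, 0.067, under the other settings. What limits these values is that the lists hold no signal below the caller's cutoff, so how far control fell short at the 408 regions is not known.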
